A study of Mus musculus with 12 samples.

Results

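Beko is a mouse cell line that the labels describe as pre-T cells, grown in suspension medium with serum, peptone and insulin. Its control state was described here from 6 of the 12 RNA-seq libraries of the series, chosen because the labels give them neither of the drugs nor the hairpin against Hdac3. Of these libraries, 2 received DMSO for 24 h as controls of the γ-secretase inhibitor DAPT and 2 received DMSO for 24 h as controls of the histone deacetylase inhibitor apicidin. The other 2 were infected with plasmids expressing scrambled shRNAs and harvested 96 h after puromycin. All 6 therefore carried a vehicle or a selected vector, and no library of cells without any handling was analysed here. The labels give no further genotype of the line, do not say how it was derived, and do not say whether the libraries of a pair came from separate cultures. P-values therefore rest on library-to-library spread alone, and that spread may be technical.

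Pre-T cells are immature thymocytes that have committed to the T lineage and rearranged a T cell receptor β gene but not yet the α gene. They place the β chain on the surface with the invariant pre-Tα chain, and the signal from that pre-T cell receptor, together with Notch1, drives survival, proliferation and passage from the CD4-CD8- (double-negative) to the CD4+CD8+ (double-positive) stage. Notch receptors are cut by ADAM proteases and then by γ-secretase, and the freed intracellular domain joins RBPJ and Mastermind coactivators on target genes such as Ptcra, Dtx1 and Hes1.

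Libraries held 22182543 to 41257311 reads assigned to genes. Histone and structural RNA genes are abundant in ribosomal RNA-depleted total RNA. They took 47.2% to 58.0% of the summed level in TPM (reads per exonic length scaled to one total in every library). This lowers the TPM of every other gene by a like share. The share was 48.2% and 47.2% in the DAPT experiment's DMSO libraries, and 52.3% and 55.8% in the apicidin experiment's. With the scrambled hairpin it was 56.2% and 58.0%. TPM of other genes was thus lowered least in the DAPT experiment's DMSO pair. Pairs can therefore compare differently in TPM than in the scaled reads tested below. Each gene was therefore also given its percentile among the 22987 genes with a known length in its own library, where 100 is the highest level and genes without a read share a place near 17. A gene was called expressed at 1 TPM or more in all 6 libraries, and low at under 0.1 TPM in all 6. These calls were met by 10185 genes (44.3%) and 9075 genes (39.5%), and 6236 genes (27.1%) had no read in any of the 6. In each pair the replicates differed by more than sampling noise (chi-square divided by its degrees of freedom, 4.67 to 18.1). The chi-square was taken over the 13099 to 13387 genes with enough reads in a pair. This value includes structural RNA such as the ribosomal precursor Rn45s, with 2.39% and 1.48% of reads in the DAPT experiment's DMSO libraries. Each replicate was counted as a library of its own. Among protein-coding genes other than histone, ribosomal protein and mitochondrial ones, the highest levels belonged mostly to housekeeping genes. This ranking was led by the translation factor Eef1a1 (7391 to 9201 TPM) and the actin gene Actb (3347 to 3921 TPM). Among others, Ptma, Gapdh, Lars2, Pkm, Eef2, Ubb and Tuba1b followed. Lars2, which encodes a mitochondrial leucyl-tRNA synthetase, was the unstable one, with 359 to 2819 TPM. Its extremes stood apart even within the DAPT experiment's DMSO pair. Whether all reads counted for Lars2 came from this gene was not tested.

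All 6 genes taken as markers of the labelled pre-T cells were expressed and ranked at percentile 84.5 or above in every library. Ptcra, which encodes pre-Tα, stood at 223 and 222 TPM in the DMSO libraries of the DAPT experiment, 155 and 152 in those of the apicidin experiment, and 279 and 269 with the scrambled hairpin. The 3 pairs did not overlap, yet Ptcra kept a percentile between 97.9 and 98.8. Rag1, one of the nucleases that cut antigen receptor genes, was at 328 and 354, then 333 and 305, then 300.04 and 306 TPM. Its pairs overlapped, and it did not pass the test of any difference among pairs described below (limma F test, adjusted p = 0.88). Tcf7, the T cell factor that opens the T lineage program, was at 262 and 258, 343 and 324, and 292 and 290 TPM, lowest in the DAPT experiment's DMSO pair. Notch1 stayed between 123 and 139 TPM (percentile 97.1 to 97.9). It passed that F test, which used scaled reads rather than TPM, as did all 5 tested Notch receptor and ligand genes (67.1% of all genes). All 5 were also called higher in the scrambled pair than in the mean of both DMSO pairs (20.9% of all genes). Dtx1, a Notch-induced ubiquitin ligase, stood at 149 and 145, 100.4 and 105, and 113 and 119 TPM. Gata3, a zinc-finger factor needed from the earliest T cell stages, was the lowest of the markers at 23.8 and 24.9, 35.3 and 37.7, and 34.6 and 34.8 TPM, and its percentile ran from 84.5 to 91.2.

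**Figure D1:**
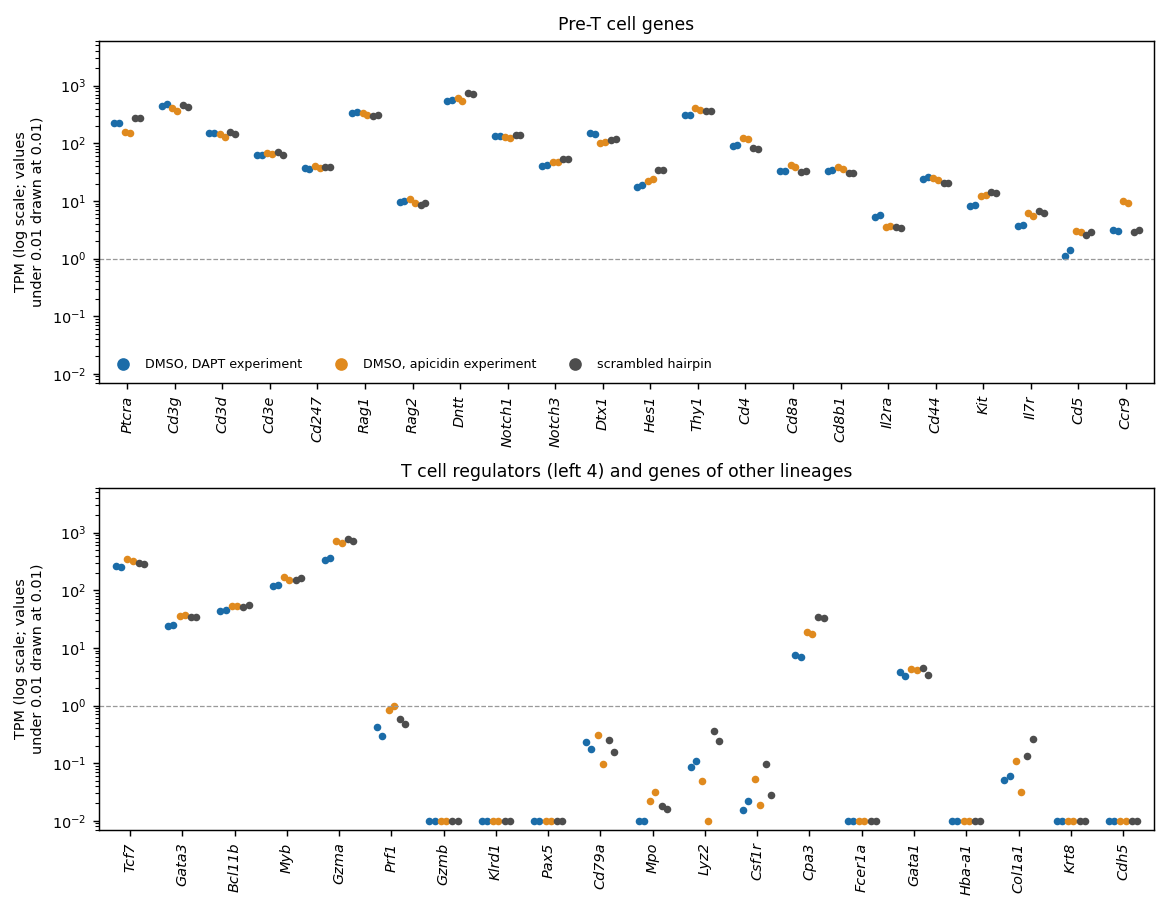
Level in TPM (log scale, values under 0.01 drawn at 0.01) of pre-T cell genes in the top panel, and of T cell regulators and genes of other lineages in the bottom panel, with 1 point per library coloured by control pair; the dashed line is 1 TPM. Ptcra, Rag1 and Thy1 lie above 100 TPM in all 6 libraries, while Gzmb, Klrd1, Pax5, Fcer1a, Krt8 and Cdh5 have no read, and Gzma and Cpa3 differ between pairs.

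Transcripts of the pre-Tα chain and of the CD3 signalling chains were all detected. All 5 genes of the pre-Tα and CD3 list were expressed, with a median percentile of 97.7 against 49.9 over all genes. That list holds no T cell receptor β gene. Cd3g was the highest (362 to 478 TPM) and Cd247, which encodes the ζ chain, the lowest (36.2 to 39.8 TPM). Of the exonic bases of Cd247, 64.0% lie opposite another gene, and reads of the pair are separable only if strand was used in counting. Below the receptor, 26 of 27 signalling genes were expressed, at a median percentile of 88.7. The adaptor Lat (498 to 536 TPM) and the kinase Lck (297 to 401 TPM), which phosphorylates CD3, led this list. The paired tandem-SH2 kinases diverged: Zap70 stood at 32.9 to 39.4 TPM and Syk, which early thymocytes also use, at 0.00768 to 0.183 TPM. The latter was the one signalling gene not called expressed.

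All 11 genes of the recombination machinery were expressed, at a median percentile of 79.4. Dntt, the polymerase that adds bases without a template at junctions, was among the highest genes of all, at 538 and 557, 599 and 531, and 735 and 716 TPM. It was highest with the scrambled hairpin, where both libraries lay above the other 4. Of the obligate RAG partners, Rag1 had a median of 317 TPM, whereas Rag2 stayed at 9.62 and 9.80, 10.9 and 9.30, and 8.63 and 9.28 TPM. Their levels stood at median percentiles of 98.9 and 72.2. The Ku partners were also uneven, with Xrcc6 at a median of 302 TPM and Xrcc5 at 28.8 TPM. DNA-PKcs (Prkdc) was at 3.90 to 5.66 TPM and the end-joining factor Nhej1 at a median of 4.87 TPM.

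Surface genes of several stages were found together. Of 22 stage markers 19 were expressed, at a median percentile of 87.1, and none was low in all 6 libraries. The surface genes Ly6d (534 to 754 TPM), Thy1 (310 to 416 TPM) and Cd24a (290 to 507 TPM) led. Both coreceptors of the double-positive stage were expressed: Cd4 stood at 91.2 and 94.5, 122 and 116, and 81.5 and 80.9 TPM. Cd8a was lower at 31.6 to 41.5 TPM and Cd8b1 similar at 30.7 to 37.9 TPM. Genes typical of double-negative stages were present as well, with the adhesion receptor Cd44 at 20.2 to 25.6 TPM and the stem cell factor receptor Kit at 8.17 to 14.4 TPM. Il2ra, the CD25 gene that defines double-negative stages 2 and 3, was expressed at 5.17 and 5.75, 3.50 and 3.60, and 3.51 and 3.35 TPM, and its highest pair was the DMSO pair of the DAPT experiment. Flt3 of multipotent progenitors was at 0.115 to 0.337 TPM. Cd5, which rises with receptor signalling, stood at 1.08 to 3.02 TPM and its relative Cd6 at 0.191 to 0.975 TPM. Being bulk RNA, these levels cannot tell cells that carry all these transcripts from a mixture of cells at different stages, nor fewer cells of a type from less RNA per cell.

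The T lineage regulators were expressed as a set. Of 43 such factors 35 were expressed, at a median percentile of 85.9, and 2 were low (Ahr and Egr3, the latter without a read). Tcf7, Ets1 (154 to 179 TPM), Myb (121 to 167 TPM), the E proteins Tcf12 (139 to 156 TPM) and Tcf3 (87.0 to 92.8 TPM), Myc (86.4 to 138 TPM) and Lef1 (103 to 131 TPM) ranked highest. Bcl11b, the factor that seals T lineage commitment, was at 43.5 to 55.0 TPM. Inhibitors of E proteins were present beside them, with Id2 at 46.7 to 62.1 TPM and Id3 at 22.5 to 33.5 TPM. Runx1 exceeded Runx3, at 13.2 to 15.6 against 4.66 to 6.11 TPM. The early response factors that follow strong receptor signals were barely detected, with Egr1 at 0.347 to 1.002 TPM and Egr2 at a median of 0.16 TPM. Zbtb7b, which directs CD4 lineage choice, was at 0.320 to 0.922 TPM.

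Regulators of mature effector subsets were weaker. Of 14, 8 were expressed, at a median percentile of 56.2, led by Nfil3 (32.6 to 49.4 TPM) and Stat4 (median 18.5 TPM, with 32.8% of its exonic bases shared with another gene on its own strand). Tbx21, Eomes, Prdm1 and Foxp3 had medians of 0.45, 0.63, 0.24 and 0.16 TPM. Factors of progenitors and other lineages were largely missing: 5 of 29 were expressed and 18 were low, of which 14 had no read. Those without a read included the B cell factors Pax5 and Ebf1, the myeloid factor Cebpa, the stem cell factors Gata2, Erg and Hoxa9, and Mef2c and Bcl11a. Several factors that drive subtypes of T cell leukaemia, Tlx1, Tlx3, Lmo1 and Lmo2, also had none, and Tal1 was low. For Tlx1 and Lmo2, 0 reads allow up to 0.0901 and 0.102 TPM (3 reads in the library with the highest such limit, counting error only). The 5 expressed factors were Irf8 (14.5 to 18.3 TPM), Gata1 (3.24 to 4.49 TPM), Gfi1b (1.23 to 9.84 TPM), Cebpb and Lyl1.

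**Figure D2:**
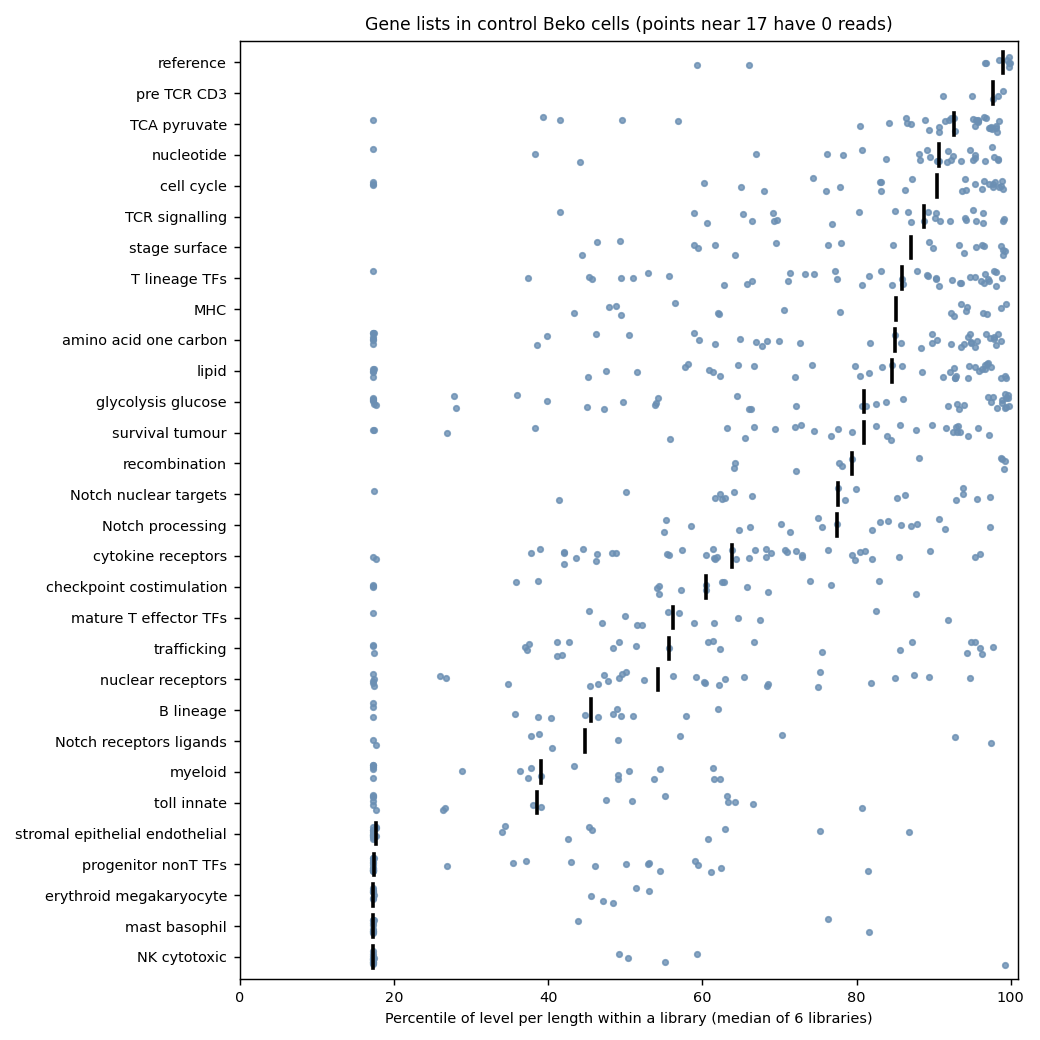
Percentile of each listed gene within a library, as the median over the 6 control libraries, for 30 gene lists ordered by their median (black bar); 1 point per gene. The pre-Tα and CD3 list has a median of 97.7. The lists of natural killer, mast cell, erythroid and stromal genes and of progenitor and non-T factors have medians near 17. That is the place shared by genes without a read, though only 7 of 22 stromal genes lacked reads in every library.

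Of 10 Notch receptors and ligands 4 were expressed: Notch1, Notch3 (39.7 to 53.3 TPM), Notch2 (5.76 to 8.72 TPM) and the ligand Jag2 (1.26 to 2.24 TPM). The ligands Dlk1 and Jag1 were low, Dll1 had no read, and Dll4 and Dll3 had medians of 0.024 and 0.051 TPM. The order Notch1, Notch3, Notch2, Notch4 held in every library, with no overlap between neighbours. Of 19 genes that process or modify Notch, 17 were expressed, among them the γ-secretase subunits Psen2, Ncstn, Aph1a, Aph1b and Psenen and the proteases Adam10 and Adam17. Among the Fringe glycosyltransferases, which tune ligand preference, Mfng was highest (35.8 to 39.0 TPM), Rfng intermediate (11.2 to 14.7 TPM) and Lfng near the threshold (0.892 to 1.99 TPM). In the nucleus, 16 of 19 cofactors and targets were expressed. The DNA-binding partner Rbpj stood at 12.7 to 16.6 TPM, and among coactivators Maml1 (median 6.03 TPM) and Maml3 (4.26 TPM) exceeded Maml2 (0.48 TPM). Hes1 stood at 17.2 and 19.1, 22.3 and 24.1, and 34.6 and 33.7 TPM, and Hey1 at 63.1 and 65.9, 73.4 and 69.4, and 38.0 and 37.9 TPM. These related repressors were thus ordered differently over the pairs, Hes1 being highest and Hey1 lowest with the scrambled hairpin. Hes5 and Hey2 were low. Nrarp was at 24.7 to 26.8 TPM, but 79.4% of its exonic bases overlap a gene on the opposite strand.

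Of 43 cytokine and growth factor receptor genes 29 were expressed, at a median percentile of 63.8. The common γ chain Il2rg was high (52.6 to 72.0 TPM, 43.6% of its exonic bases shared with another gene on the same strand). Its partner chains were lower: Il9r at 13.0 to 19.97 TPM, Il15ra at a median of 8.40 TPM, Il7r at 3.62 to 6.72 TPM and Il2rb at 0.712 to 1.68 TPM, while Il4ra was low in all 6 libraries. The insulin and IGF1 receptors Insr and Igf1r had medians of 6.06 and 3.15 TPM. Of 27 homing genes 14 were expressed, 51.9% against 44.3% of all genes. The chemokine receptor Cxcr4, which retains thymocytes in the cortex, was at 132 to 144 TPM, and Ccr4 at 5.83 to 14.6 TPM. Ccr9, a receptor for a thymic and gut chemokine, stood at 3.12 and 2.95, 9.93 and 9.31, and 2.898 and 3.14 TPM, its apicidin-experiment DMSO pair standing apart. Of the egress genes of mature thymocytes S1pr1 (0 to 0.0356 TPM) and Ccr7 were low. Klf2, which regulates S1pr1, was at 0.403 and 0.176, 1.36 and 1.65, and 2.27 and 1.56 TPM.

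Defining genes of other blood and stromal cells were at or near 0, with some named exceptions. Of 17 natural killer and cytotoxic genes 12 were low, 10 of them without a read, among them Gzmb, Klrd1, Ncr1 and Ifng. Gzma, a granule protease, was the one exception, at 338 and 357, 715 and 656, and 783 and 729 TPM, above percentile 98.8 everywhere, while the pore-forming protein gene Prf1 was at 0.294 to 0.968 TPM. For Gzmb, 0 reads allow up to 0.134 TPM. The list's summed level, 340.5 to 360.0, 662 to 720.3 and 734 to 788 TPM in the 3 pairs, was nearly all Gzma. Of 13 mast cell and basophil genes only Kit and Cpa3 were expressed. Cpa3, a mast cell carboxypeptidase gene, was at 7.55 and 6.94, 18.5 and 17.4, and 34.8 and 32.5 TPM, with no overlap between pairs. The high-affinity IgE receptor Fcer1a and the proteases Mcpt1, Mcpt2, Mcpt4, Cma1, Tpsab1 and Tpsb2 had no read in any library, and the list's sum of 15.5 to 15.8, 30.4 to 30.8 and 46.7 to 49.3 TPM was Cpa3 and Kit almost alone.

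B lineage genes summed to 6.48 to 9.13 TPM, with 1 of 14 expressed (Fcer2a, 3.27 to 4.48 TPM). Ms4a1, Pax5 and Ebf1 had no read. Myeloid genes summed to 12.04 to 17.4 TPM, with 4 of 19 expressed (Itgam, Cd68, Csf3r and Cd33), Mpo and Csf1r low and S100a8, S100a9 and Cd14 without a read. Itgam shares 70.04% of its exonic bases with another gene on its strand. Of 13 erythroid and megakaryocyte genes with a length none was expressed, and they summed to 1.81 to 2.54 TPM. Among 22 stromal, epithelial and endothelial genes 4 were expressed: Pecam1 (18.8 to 29.0 TPM), Pdgfrb (7.79 to 14.8 TPM), Cdh1 (3.76 to 4.84 TPM) and Acta2 (2.96 to 4.29 TPM). Cdh5, Krt5, Krt8, Dcn and Lum had no read.

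Listed class I pathway genes other than Nlrc5 had higher median levels than the class II genes. B2m stood at 775 to 937 TPM and the immunoproteasome gene Psmb8 at a median of 256 TPM, while 14 of 18 genes of the list were expressed. Of class II genes H2-Ab1 was at 3.87 and 3.26, 3.92 and 3.25, and 12.5 and 10.8 TPM, high only in the scrambled pair, and the master regulator Ciita at a median of 0.10 TPM. H2-K1 and H2-D1 have near-identical relatives, so their levels are uncertain. Among 18 innate sensors 5 were expressed, led by Tmem173, which encodes STING (13.4 to 18.5 TPM), and Tlr3, Tlr4, Tlr8, Tlr11 and Tlr13 had no read. The glucocorticoid receptor Nr3c1 was the highest of 32 nuclear receptors, of which 16 were expressed, at 60.8 to 69.3 TPM, and it did not differ among pairs by the limma F test (adjusted p = 0.73). Pparg had no read, and the orphan receptor Nr4a1, which responds to receptor signals, had a median of 0.48 TPM. Of 19 checkpoint and costimulatory genes 11 were expressed. Ctla4 was at 6.22 and 6.44, 1.66 and 1.58, and 2.85 and 3.26 TPM, and Cd28 at 12.04 to 17.3 TPM.

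The 5 metabolic lists had medians above the 49.9 of all genes. They were at percentile 92.7 for the citric acid cycle and pyruvate list (30 of 35 expressed), 90.7 for nucleotide synthesis (26 of 29), 85.1 for amino acid and one-carbon genes (32 of 43), 84.6 for lipid genes (34 of 43) and 81.0 for glycolysis and glucose handling (26 of 42). Of the citric acid cycle and pyruvate genes 20 stood at percentile 90 or above in every library, as did 8.68% of all genes. Alternative forms of a step were expressed very unequally. For glucose entry Slc2a1 and Slc2a3 were expressed and Slc2a2 was low. Hk1 (36.6 to 63.6 TPM) and Hk2 (11.5 to 40.6 TPM) were the expressed hexokinases named here, and Hk3 was low. Ldha reached 1397 and 1390, 1191 and 1106, and 856 and 855 TPM, above Ldhb at 105 to 151 TPM in every library. Pkm was at 1692 to 2248 TPM and Pklr was low. Of the kinases that switch off pyruvate dehydrogenase, Pdk1 (51.0 to 128 TPM) and Pdk3 (30.4 to 51.2 TPM) far exceeded Pdk2 (0.854 to 2.10 TPM). Fbp1, a gluconeogenic phosphatase gene, was nonetheless expressed at 45.6 to 73.0 TPM while G6pc had no read. Enolase could not be assigned, since Eno1 is listed with only a few reads beside a near-identical copy that holds most of them.

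In biosynthesis, the serine pathway gene Phgdh stood at 256 to 377 TPM and the polyamine gene Odc1 at 145 to 272 TPM. The liver forms and urea cycle genes Mat1a, Cps1 and Otc had no read, whereas Mat2a was at 66.3 to 82.0 TPM. Asparagine synthetase, Asns, was expressed at only 2.29 to 5.16 TPM. Impdh2 exceeded Impdh1 (166 to 284 against 66.6 to 82.4 TPM). The fatty acid carrier Fabp5 (574 to 1147 TPM) and the desaturase Scd2 (523 to 827 TPM) led the lipid list with Hmgcs1. The mitochondrial carnitine palmitoyltransferase gene Cpt1a was at 45.9 to 61.7 TPM, against medians of 0.26 and 0.17 TPM for Cpt1c and Cpt1b. The scavenger receptor Cd36 and the cholesterol exporter Abca1 had no read.

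**Figure D3:**
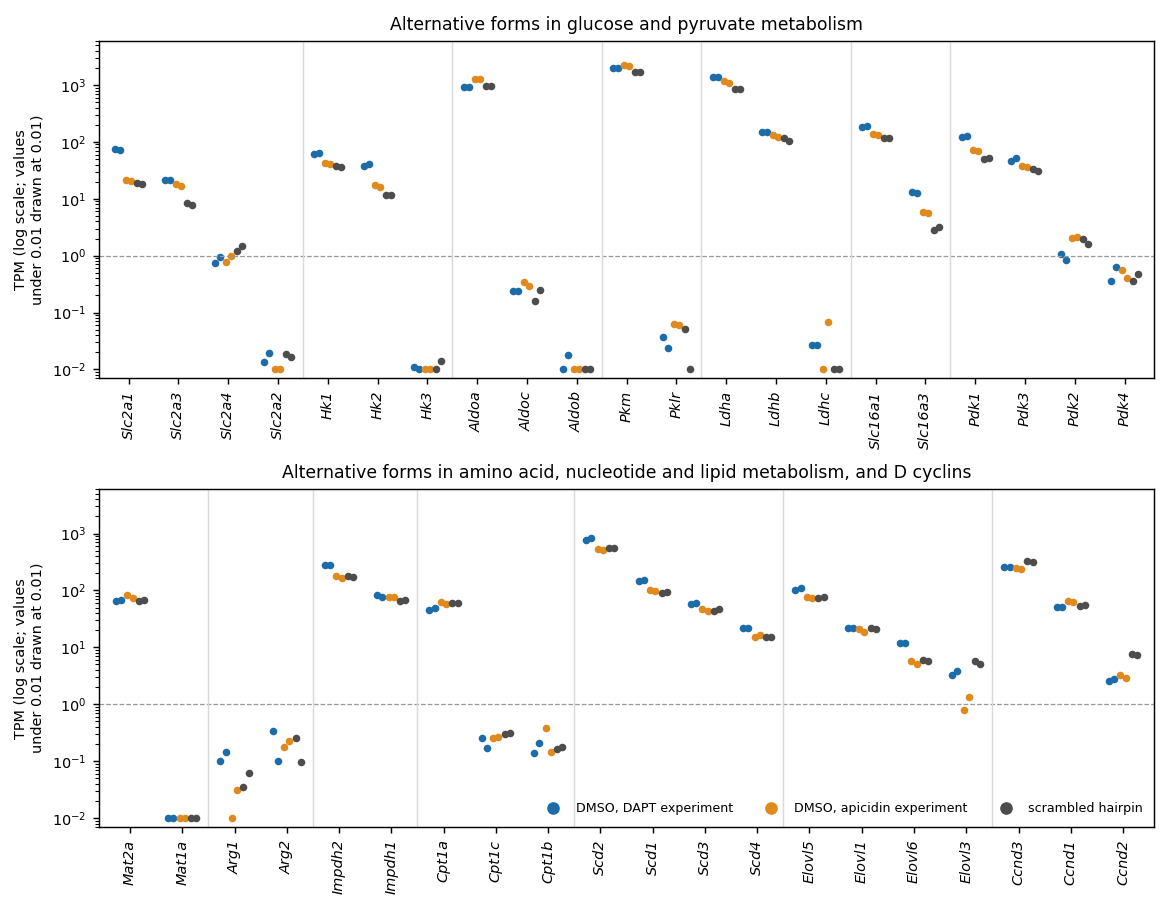
Level in TPM (log scale, values under 0.01 drawn at 0.01) of alternative forms of metabolic steps and of D cyclins, grouped between vertical lines, with 1 point per library coloured by control pair. In each of the groups for pyruvate kinase, methionine adenosyltransferase and carnitine palmitoyltransferase 1 form lies above 40 TPM and the others below 1 TPM; Slc2a1, Hk2 and Slc16a3 are highest in the DMSO pair of the DAPT experiment.

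Proliferation genes were high: 25 of 28 cell cycle genes were expressed, at a median percentile of 90.5, with Pcna at 335 to 547 TPM. The D cyclin of pre-T cells, Ccnd3, was highest (243 to 327 TPM), Ccnd1 followed (50.6 to 66.2 TPM) and Ccnd2 was at 2.61 and 2.83, 3.24 and 2.91, and 7.56 and 7.38 TPM. The tumour suppressor loci Cdkn2a and Cdkn2b had no read in any library, which allows up to 0.164 and 0.139 TPM. Trp53 was expressed at 41.7 to 54.8 TPM. Among survival genes Mcl1 was at 54.7 to 71.6 TPM, Bcl2l1 at 7.04 to 10.3 TPM and Bcl2 at 1.29 to 1.56 TPM.

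Ranks were stable over the 3 pairs. Among the 10185 expressed genes the percentile of a pair's mean ranged by a median of 1.99 points over pairs, and by 5.12 points at the 90th percentile of genes. Only 123 of them (1.21%) moved by more than 10 points. Within a pair the replicates differed by a median of 0.396 to 0.470 points. The DMSO pair of the DAPT experiment was the most distant, at 1.39 points from the other DMSO pair and 1.44 from the scrambled pair, while those differed from each other by 0.728 points. Across expressed genes, which are not independent replicates, Spearman correlations were 0.997 to 0.998 within pairs and 0.973 to 0.991 between pairs. Genes between percentiles 70 and 80 moved most (median 2.83 points) and those above 90 least (0.793 points).

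Small differences between pairs were nevertheless common. Reads were scaled by size factors recomputed over the 6 libraries and tested with limma on log2(scaled reads + 1), for genes with a scaled value of 10 or more in at least 2 libraries. Of 12801 genes tested, 8588 (67.1%) differed among the pairs at an adjusted p under 0.05, and 1106 (8.64%) did so with 2-fold or more between pairs. Between the DMSO pairs, 3255 genes (25.4%) were higher and 3823 (29.9%) lower in the apicidin experiment than in the DAPT experiment, a split of 46.0% higher, and with upper-quartile factors 4210 were higher and 3052 lower (58.0%). The scrambled pair had 2678 genes (20.9%) higher and 3142 (24.5%) lower than the mean of both DMSO pairs, and with upper-quartile factors 3127 higher and 2603 lower (54.6% higher against 46.0%). Hairpin, selection, time in culture, experiment and any batch cannot be told apart in these contrasts. Among the markers, Ptcra differed by -0.47 ± 0.05 between the DMSO pairs (log2, ± SE; apicidin minus DAPT experiment; limma adjusted p = 7.1e-09) and by 0.68 ± 0.04 in the scrambled pair against both (adjusted p = 3.6e-12), and Gata3 differed by 0.65 ± 0.06 between the DMSO pairs (adjusted p = 9.5e-10).

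**Figure D4:**
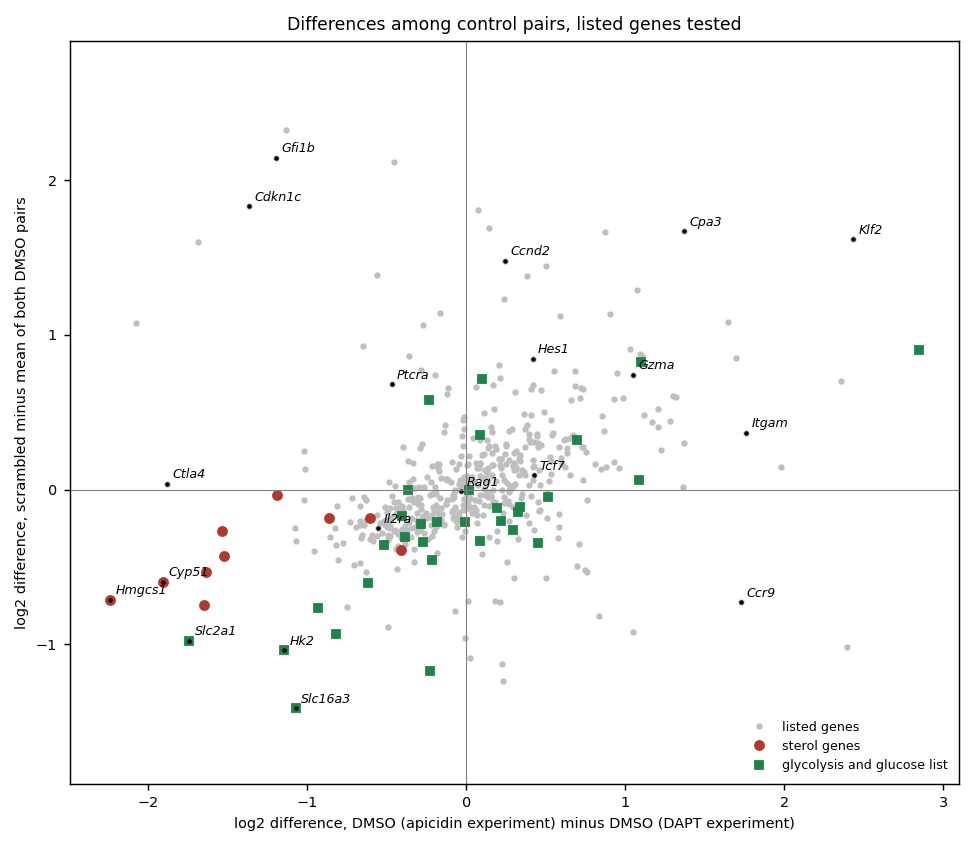
Log2 differences of scaled reads for listed genes, between the DMSO pairs (x axis, apicidin minus DAPT experiment) and between the scrambled pair and the mean of both DMSO pairs (y axis), with 1 point per gene. The 10 sterol genes (red) lie left of 0, Rag1 lies near the origin, and Klf2, Gfi1b and Cpa3 lie far from it; both axes share the DMSO libraries.

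Of 10 tested sterol genes, grouped after their values were seen, all 10 were lower in the apicidin experiment than in the DAPT experiment, 7 of them by 2-fold or more (a call met by 2.3% of all genes), at a median log2 difference of -1.53 against -0.00 over all genes. Hmgcs1, which makes the precursor of mevalonate, had 70652 and 76576 scaled reads in the DAPT experiment's DMSO libraries, 15535 and 15622 in the apicidin experiment's, and 20241 and 21124 with the scrambled hairpin. The first pair was thus far above the other 4 libraries (log2 difference between the DMSO pairs -2.24 ± 0.06, limma adjusted p = 1.2e-19). Cyp51, a sterol demethylase gene, differed by -1.91 ± 0.05, Lss by -1.65 ± 0.05, Fdft1 by -1.64 ± 0.05 and Sqle by -1.54 ± 0.04. The cholesterol exporter Abcg1 went the other way, by 1.70 ± 0.06.

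Sterol genes are known to be controlled together by SREBP factors, which bind elements of the form TCACNCCAC. The promoter of Hmgcs1 is shown because it belongs to the gene of this group with the largest difference. Its RefSeq window in GRCm38.p6, chr13:119690101-119690400 on the + strand, from 250 bases before to 50 after the start, holds 1 match on the strands searched (both), in capitals:
Hmgcs1: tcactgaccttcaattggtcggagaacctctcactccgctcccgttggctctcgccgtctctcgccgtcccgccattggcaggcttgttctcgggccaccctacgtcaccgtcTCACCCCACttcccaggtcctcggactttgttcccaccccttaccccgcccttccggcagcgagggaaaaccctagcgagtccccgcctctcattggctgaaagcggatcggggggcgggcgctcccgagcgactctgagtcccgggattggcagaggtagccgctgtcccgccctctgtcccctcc
A match was found in 408 of 32851 windows of the same length (1.24%). Of the 10 sterol genes 5 are in the RefSeq table, and 1 has a match. A match is a description of the letters and says nothing of binding in these cells.

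Of 32 tested glucose genes 9 were higher and 16 lower (25.4% and 29.9% of all genes) in the apicidin experiment's DMSO pair than in that of the DAPT experiment, at a median of -0.10, or -0.02 with upper-quartile factors. In the scrambled pair 3 were higher and 19 lower (20.9% and 24.5% of all genes), at a median of -0.21. By 2-fold or more, 3 glucose genes were lower in the scrambled pair (0.492% of all genes) and 3 of 41 T lineage factors higher (2.71% of all genes). The glucose transporter Slc2a1 had 5052 and 4850.5, 1434 and 1524, and 1420.3 and 1330.1 scaled reads (-1.74 ± 0.05 between the DMSO pairs, limma adjusted p = 3.3e-18). Hk2 differed by -1.15 ± 0.05, Pgam1 by -0.93 ± 0.05 and the lactate exporter Slc16a3 by -1.07 ± 0.08, while Aldoa was higher by 0.51 ± 0.06 and Gapdh by 0.34 ± 0.07. Bnip3, a hypoxia-responsive mitophagy gene outside the lists, fell into the same group with 6142 and 6526, 1297 and 1274, and 973 and 956 scaled reads. Between the DMSO pairs, where 25.4% of all genes were higher and 29.9% lower, the other metabolic lists held more lower than higher genes. Of 27 nucleotide genes 0 were higher and 21 lower (median -0.38), of 32 citric acid cycle and pyruvate genes 3 were higher and 22 lower (-0.32), and of 34 amino acid and one-carbon genes 4 were higher and 25 lower (-0.37). Against the same shares of all genes, 24 of 36 cytokine receptor genes were higher and 2 lower (median 0.38), and 13 of 20 homing genes were higher and 1 lower (0.51), 4 of them 2-fold or more higher (2.54% of all genes).

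Some single genes of lineage and stage differed by larger folds than the markers. Klf2 had 15.4 and 6.68 scaled reads in the DAPT experiment's DMSO libraries, 52.2 and 68.3 in the apicidin experiment's and 95.2 and 65.7 with the scrambled hairpin, 7.13-fold between the extreme pairs. Gfi1b, a transcriptional repressor required for erythroid and megakaryocyte development, was 6.69-fold higher in the scrambled pair (407 and 347 scaled reads) than in the apicidin experiment's DMSO pair (46.8 and 65.2). The cell cycle inhibitor Cdkn1c differed 5.72-fold between the same pairs (30.3% of its exonic bases lie opposite another gene) and Cpa3 5.11-fold between the scrambled and the DAPT experiment's DMSO pair. Gzma was higher in the apicidin experiment's DMSO pair than in that of the DAPT experiment by 1.05 ± 0.05, and higher in the scrambled pair than the mean of both DMSO pairs by 0.74 ± 0.04 (limma adjusted p = 1.7e-14 and 1.9e-12). Ccr9 differed by 1.73 ± 0.08 between the DMSO pairs and by -0.73 ± 0.07 in the scrambled pair. Itgam differed by 1.76 ± 0.09 and Ctla4 by -1.88 ± 0.14 between the DMSO pairs. Ccnd2 (1.48 ± 0.06) and H2-Ab1 (1.81 ± 0.12) were higher in the scrambled pair.

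The largest differences were ranked among genes with a mean of 50 or more scaled reads and a limma adjusted p under 0.05. Histone, structural RNA and mitochondrial genes and genes with provisional symbols were left out of this ranking. The largest rises in the apicidin experiment's DMSO pair over that of the DAPT experiment were in Tmem38b, Klf2, Dnm1, Lzts1, Acsbg1 and Cst7. Dnm1, which encodes dynamin 1, went from 84.0 and 93.6 to 463 and 500.1 scaled reads, and Tmem38b varied more than 2-fold within that DMSO pair (1480 and 609). The largest falls were in Clu, Prex2, Ak4, Cited1, Frmd7 and Rnf130. Clu, which encodes the chaperone clusterin, went from 193 and 164 to 18.7 and 16.6 and stood at 218 and 211 with the scrambled hairpin. In the scrambled pair the largest rises over the DMSO libraries were in Olfm1, Col6a1, Fzd2, Jup, Fam171a2 and Enah. Col6a1, a collagen VI chain gene, had 441 and 464 scaled reads there against 33.5 to 99.5 in the 4 DMSO libraries, and the plakoglobin gene Jup 152 and 184 against 11.4 to 35.6. The largest falls were in Ace, Bnip3, Samd9l, Selenbp2, Slc16a3 and Selenbp1. Ace, the angiotensin-converting enzyme gene, had 26.2 and 27.6 scaled reads with the scrambled hairpin, 184 and 175 in the DAPT experiment's DMSO pair and 48.2 and 52.8 in the apicidin experiment's.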

How the data were processed

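Ribosomal RNA-depleted total RNA was sequenced with a stranded kit, per the labels' protocols. The submitters' processing notes name the mm9 build, FastQC, Bowtie2, TopHat and DESeq2; of the read counter, gene annotation and strandedness of counting nothing was stated there. For every experiment the authors deposited a table with a normalized signal for each of 23366 gene symbols, per the file headers. In the deposited signal 100% of values were whole multiples of the value of 1 read (tolerance 1e-06), so whole reads were recovered and the separate scaling of the tables was undone. The authors' fold changes (log2) and p-values with adjusted p-values, also deposited, describe treated cells and were not used. Groups and replicate numbers come from the sample titles.

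Symbols were matched to GENCODE M21 (GRCm38), 21732 directly and 1255 through a synonym; 379 without a length were left out of TPM, and held 1.82% to 4.14% of reads. Gene lists (30, with 696 genes that have a length) and the sets described were chosen with earlier results of these data known. Named genes are the markers, the 10 highest genes, the highest and lowest members and alternative forms of each list, and members with 2-fold differences. The 6 largest rises and falls of each contrast among genes with a curated symbol were also named. Some genes outside that rule, such as Id2, Trp53, Asns and Il9r, were named after their values were seen.

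Differences were tested with limma 3.58.1 in R 4.3.3 with an intensity trend (pseudocount 1, 6 libraries in 3 groups, no covariates, two-sided, Benjamini-Hochberg over all tested genes at 0.05). The pseudocount understates folds of genes with few reads. Of the listed genes 530 passed the filter on low values and 168 did not. edgeR 4.0.16 and DESeq2 1.42.0 on recovered reads were alternatives. The fit was tested on simulated reads. Some members of the lists are counted but not reported by name here.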

Additional observations from a re-analysis of the deposited data

How the results depend on the processing

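The count of genes differing among pairs was 8737 with edgeR, 6965 with DESeq2 and 8720 with upper-quartile factors, and 7147 to 8563 when each library was left out in turn. Between the DMSO pairs DESeq2 gave 2594 higher and 3162 lower genes, and the left-out libraries gave 2458 to 3289 and 3097 to 3804. For the scrambled pair DESeq2 gave 1995 and 2266, upper-quartile factors 3127 and 2603 (54.6% higher), and the left-out libraries 1967 to 2716 and 2365 to 3142. With the replicate number as a block the counts were 8578, then 3245 and 3802, then 2674 and 3132. Replicate differences correlated between pairs by -0.08, -0.02 and 0.21, the last between the apicidin experiment's DMSO pair and the scrambled pair. Each pair gives a single difference, so these values cannot decide whether equal replicate numbers mark paired libraries. When percentiles were taken only among genes with a read in any library, the median range over pairs was 2.73 points, since the same ranks are spread over fewer genes. Leaving out each library gave 1.94 to 2.06 points. Without division by length, 48 of 696 listed genes moved by more than 10 percentile points. With percentiles only among genes with a read in any library, 294 of 611 did so, at a median shift of 9.10 points. Percentiles given here therefore depend on counting genes without a read. All 10 sterol genes stayed lower with TMM, upper-quartile factors and DESeq2, at medians of -1.53, -1.46 and -1.52. The glucose list's median between the DMSO pairs was -0.02 with upper-quartile factors. Limits for genes without a read cover counting error only.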

Other observations

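Outside the described lists, the adenylate kinase gene Ak4 had 197 and 212 scaled reads in the DAPT experiment's DMSO libraries, 22.7 and 26.9 in the apicidin experiment's and 186 and 217 with the scrambled hairpin. Rnf130, a RING-finger gene, had 214 and 202, 33.5 and 35.2, and 517 and 511 scaled reads. In both genes the apicidin experiment's DMSO pair was the low one and did not overlap the other 4 libraries. Prex2 differed within a pair as well, with 1784 and 2798 scaled reads in the DAPT experiment's DMSO libraries against 225 to 321 in the other 4.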
